A study of Homo sapiens with 4 samples.

Results

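The protocadherin family was examined as all genes of the TPM table (transcript abundance normalised for transcript length and library size) whose name starts with PCDH. The rule took 66 of 20263 genes: 13 non-clustered genes, 15 PCDHA genes, 16 PCDHB genes and 22 PCDHG genes. The count table listed 41 of the 66, and 32 passed the filter on low counts and were tested. The members were found by name alone and not by a measured value, but the family was chosen with earlier results of these data known.

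The libraries came from HEK293T cells, a human embryonic kidney line that carries adenoviral and SV40 sequences and is easily transfected. The groups were FOXP4 KO cells (2 libraries) and control cells (2 libraries), both grown in the same serum-containing medium with antibiotics, and the comparison asked which transcripts differ when FOXP4, a forkhead transcription factor, is depleted. The sources do not describe the perturbation in 1 way: the labels call the genotype a knock down, the study's methods describe shRNA virus and puromycin selection, and its results describe CRISPR-Cas9. The titles of both FOXP4 KO libraries share 1 line number, so the group may stand for a single line. Nothing states that the 2 libraries of a group were separate cultures, and the p-values then measure only the spread between libraries, which may be technical.

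Protocadherins are the largest group of the cadherin superfamily, calcium-dependent adhesion proteins of the plasma membrane, and are best known from neurons. The clustered genes lie in 3 arrays on chromosome 5. In PCDHA and PCDHG, each variable exon has its own promoter and is spliced to constant exons shared by the whole array, whereas each PCDHB gene is a separate exon. A neuron uses only some of these promoters, and the combination gives the cell surface an identity that neurons use to tell their own branches from those of other cells. Choice among the promoters involves DNA methylation, CTCF and cohesin, and a conserved sequence element in the variable promoters. The non-clustered genes lie apart from one another on several chromosomes, and include genes of axon growth, cell sorting and epithelial or endothelial contact.

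Promoter sequences were taken from RefSeq (GRCh38.p14; 250 bases before to 50 bases after each gene's start), where 58 of the 66 members had one. Within each array, the 9 bases found in the promoters of most members were sought on the forward strand of the gene. They were GATGTCGCT in PCDHA (9 of 13 promoters), GGTGGCGCT in PCDHB (13 of 14) and GCGCCGCTG in PCDHG (10 of 20). On both strands these letters occurred in 0.128%, 0.619% and 1.59% of all 27305 genes with a promoter, and in none of the 11 non-clustered promoters. Each of the 3 holds CGCT, the core of the known conserved element, which by itself is frequent: 12 of 13 PCDHA, 14 of 14 PCDHB, 20 of 20 PCDHG and 10 of 11 non-clustered promoters had it, against 71.9% of all genes. The median position of the first base was 53 bases before the start in PCDHA, 66 in PCDHB and 68 in PCDHG. The stretches below, 5′ to 3′ on the forward strand with the shared 9 bases in capitals, are those of the 2 clustered genes that rose in FOXP4 KO cells (PCDHA10, PCDHB2), of array neighbours for comparison, and of PCDHGA11, the PCDHG gene of at least 1 TPM whose promoter holds the shared bases.
PCDHA10, chr5:140855832-140855880: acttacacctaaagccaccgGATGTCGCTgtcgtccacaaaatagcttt
PCDHA2, chr5:140794772-140794820: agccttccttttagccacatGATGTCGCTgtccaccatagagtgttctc
PCDHB2, chr5:141094535-141094583: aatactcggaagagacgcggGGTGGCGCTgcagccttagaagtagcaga
PCDHB14, chr5:141223254-141223302: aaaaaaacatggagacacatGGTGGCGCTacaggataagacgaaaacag
PCDHB5, chr5:141135170-141135218: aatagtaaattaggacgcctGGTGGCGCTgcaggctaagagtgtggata
PCDHGA11, chr5:141420964-141421012: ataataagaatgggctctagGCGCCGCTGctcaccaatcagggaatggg

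The shared bases were chosen as those that most members of an array hold, so their presence could hardly separate genes that rose from others. Of the genes shown, PCDHA2 and PCDHB5 were not tested, and PCDHB14 and PCDHGA11 were tested and not called. The forkhead letters TGTTTAC were found in none of the 58 member promoters on either strand, against 4.19% of all genes. The exact letters GGNGGCAG, part of the CTCF consensus, were found only in the promoter of PCDHGC4, against 19.3% of all genes. Other forms of the consensus were not counted. The shared PCDHB bases GGTGGCGCT begin with GGNGGC and differ from the counted letters only after it. The count thus does not show that CTCF sequence is rare in the arrays. Such counts describe these windows and say nothing of the binding of a factor.

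FOXP4 itself (ENSG00000137166) had 713 and 886 counts in the FOXP4 KO libraries, against 2562 and 2463 in the control libraries. The log2 fold change was −1.78 (SE 0.185, adjusted p = 0.0038, edgeR's quasi-likelihood test), so transcript remained in the FOXP4 KO cells. Total counts ranged from 36393224 to 43057305 over the 4 libraries. Of the markers listed for the HEK293T line, 8 of 9 reached 1 TPM in some library, with NEFM rising (log2 1.97) and VIM falling (log2 −1.99) in FOXP4 KO cells. Of 10 blood, endothelial and fibroblast markers, 8 stayed under 1 TPM in every library. All 10 together summed to 11.9 and 7.50 TPM in FOXP4 KO cells, against 6.94 and 8.81 TPM in control cells. Most of this was COL1A1, with 11.4 and 7.06 TPM in FOXP4 KO cells, against 5.66 and 7.25 TPM in control cells (log2 0.17, not called). LUM, named after its values were seen, had 0.0308 and 0 TPM in FOXP4 KO cells, against 0.950 and 1.14 TPM in control cells. The ovarian and epithelial markers summed to 27.4 and 26.9 TPM in FOXP4 KO cells, against 8.58 and 12.5 TPM in control cells. This came from EPCAM (log2 3.56) and CDH1 (log2 2.50), both of which rose. WT1 had 5.01 and 6.60 TPM in FOXP4 KO cells, against 6.84 and 9.07 TPM in control cells (log2 −0.48, not called), PAX8 and MUC16 stayed near 0 and KRT7 at 0. The 9 neuronal markers summed to 12.8 and 13.4 TPM in FOXP4 KO cells, against 18.3 and 22.4 TPM in control cells. Of these markers, 4 stayed under 1 TPM throughout and 5 were tested. RBFOX3 fell (log2 −1.52, adjusted p = 0.031, edgeR) and none was called higher. SYN1 (−0.82) and TUBB3 (−0.38) had a negative log2 fold change and SNAP25 (0.59) and MAP2 (0.62) a positive one, none of them called. The part of these shifts in the protocadherin results was not tested. In bulk RNA, fewer cells that use a gene and less RNA per cell cannot be told apart.

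Few protocadherins passed the test. Among the 32 tested, PCDHB2 and PCDHA10 were higher in FOXP4 KO cells, and PCDH9 and PCDH1 were lower (edgeR, Benjamini-Hochberg adjusted p under 0.05 over 14620 genes). The 4 calls are 12.5% of the tested members, against 25.8% of all tested genes, and by direction 2 of 32 members were called higher against 13.8% of genes and 2 of 32 lower against 12.1%. In this test the share among the members was below that of the table. With a stricter filter, at least 50 counts in both libraries of a group, the shares were close (4 of 14 members or 28.6%, against 28.2% of genes, edgeR). On genes of at least 1 TPM on average (limma-trend on log2(TPM + 1)), 3 of 11 members or 27.3% were called, against 24.0% of genes. The other fits of all 4 libraries gave a lower share among the members. The median log2 fold change was −0.39 over the 11 tested non-clustered genes, against 0.0085 over all tested genes. Of the 32 tested members, 14 would not have met the count filter on the control libraries alone (PCDH15, PCDHA10, all 3 tested PCDHB genes and 9 PCDHG genes), so that signs and medians of the tested clustered genes are partly set by the filter. By the fold rule that the study used, an unadjusted p under 0.05 and a size of change above 1.2 on the log2 scale, 4 members were higher (PCDHB2, PCDHA10, PCDHB14, PCDH15) and 2 were lower (PCDHGC3, PCDH17), 18.8% of the tested members against 8.4% of all tested genes in either direction. By this rule the share among the members was thus the higher one, as it was in the fit without FOXP4 KO library 2. All 4 members that were higher by the fold rule met the count filter only with the FOXP4 KO libraries. The share by the fold rule is therefore partly set by the filter.

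**Figure D1:**
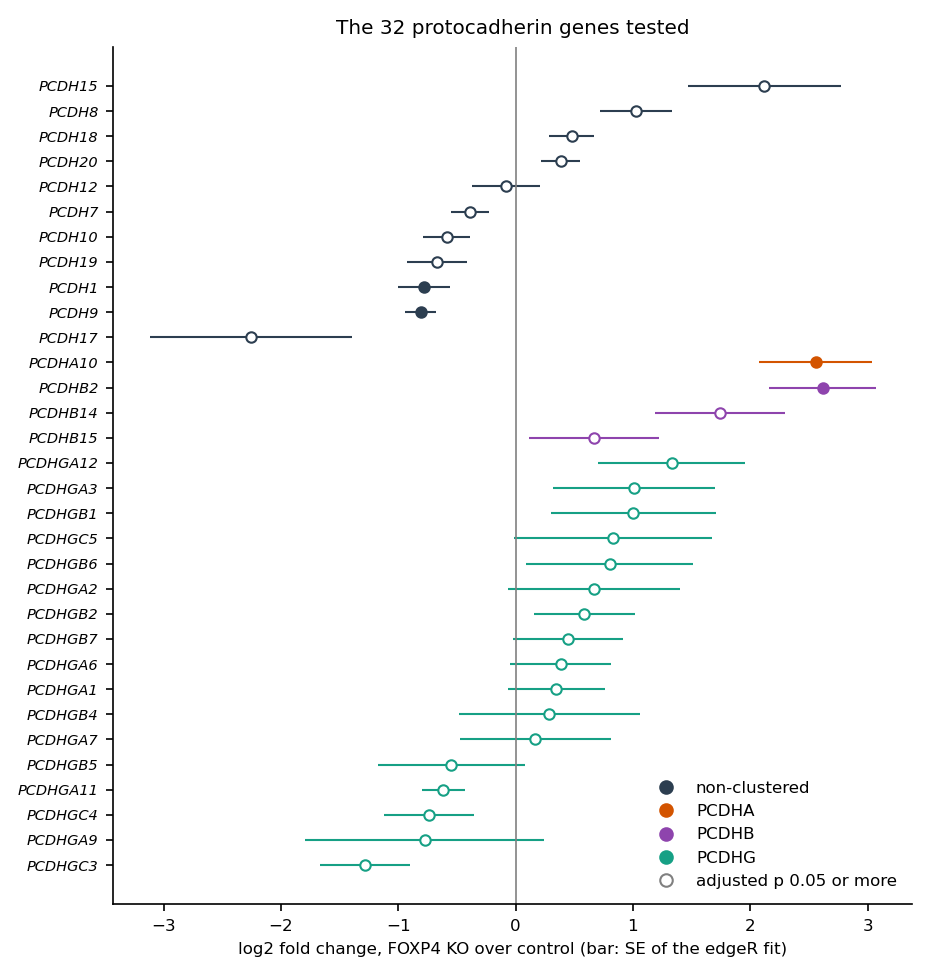
The log2 fold change of FOXP4 KO over control (x axis) for each of the 32 tested protocadherin genes, ordered within subgroups. Bars are the standard error of the edgeR fit and filled points have an adjusted p under 0.05: PCDHB2 and PCDHA10 lie to the right, PCDH9 and PCDH1 to the left, and the widest bars belong to genes with few counts.

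Most protocadherin RNA in these cells came from 3 non-clustered genes. PCDH7, PCDH10 and PCDH9 made up 69.8% and 72.1% of the family's summed TPM in FOXP4 KO cells, against 75.2% and 73.4% in control cells. The whole family summed to 101.2 and 115.0 TPM in FOXP4 KO cells, against 147.0 and 133.4 TPM in control cells, and the groups did not overlap. The non-clustered genes alone summed to 88.2 and 99.3 TPM in FOXP4 KO cells, against 130.6 and 115.8 TPM in control cells.

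PCDH9 (ENSG00000184226), a δ-type protocadherin of developing brain, fell. It had 3359 and 3383 counts in FOXP4 KO cells, against 4483 and 6565 in control cells, and the log2 fold change was −0.81 (SE 0.129, adjusted p = 0.0093, edgeR). The level per length was 7.34 and 8.09 TPM in FOXP4 KO cells, against 12.1 and 14.9 TPM in control cells. The 2 FOXP4 KO libraries were close to each other and below both control libraries, which differed more. PCDH9 lies on the reverse strand of chromosome 13 from 66302834 to 67230445 (GRCh38, GENCODE 29), a long stretch with no other tested gene within 1 Mb. Without FOXP4 KO library 1 the adjusted p was 0.056.

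PCDH1 (ENSG00000156453), a non-clustered protocadherin known from airway epithelium, fell as well. It had 117 and 129 counts in FOXP4 KO cells, against 187 and 202 in control cells, or 2.90 ± 0.264 against 4.98 ± 0.423 CPM (counts scaled to the library size; SD, n = 2 libraries each). Its log2 fold change was −0.78 (SE 0.222, adjusted p = 0.047, edgeR). The call lies at the threshold: the adjusted p was 0.089 without control library 1, 0.26 without FOXP4 KO library 1 and 0.18 without FOXP4 KO library 2, and 0.073 with the replicate number as a block. PCDH1 lies on chromosome 5 from 141853111 to 141879246 on the reverse strand, beyond the end of the clustered arrays, next to PCDH12.

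PCDH7 and PCDH10, the other abundant members, were lower in both FOXP4 KO libraries without passing the test. PCDH7, a δ-type gene whose product binds the phosphatase inhibitor SET, had 36.5 and 45.6 TPM in FOXP4 KO cells, against 51.8 and 51.5 TPM in control cells (log2 −0.39, SE 0.161, adjusted p = 0.12, edgeR). PCDH10, a δ-type gene that recruits the WAVE complex to cell contacts, had 26.9 and 29.2 TPM in FOXP4 KO cells, against 46.7 and 31.5 TPM in control cells. Its log2 fold change was −0.59 (SE 0.201, adjusted p = 0.077, edgeR), and control library 1 stood well above control library 2. The size for PCDH10 rested on control library 1: the log2 fold change was −0.28 without it (adjusted p = 0.16, edgeR) and −0.87 without control library 2 (adjusted p = 0.014).

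PCDH19, an X-linked δ-type gene mutated in an epilepsy of girls, had 127 and 183 counts in FOXP4 KO cells, against 196 and 264 in control cells (log2 −0.67, SE 0.259, adjusted p = 0.10, edgeR). PCDH18 had 436 and 352 counts in FOXP4 KO cells, against 235 and 288 in control cells (log2 0.48, SE 0.192, adjusted p = 0.11). PCDH20 had 709 and 598 counts in FOXP4 KO cells, against 426 and 497 in control cells (log2 0.39, SE 0.166, adjusted p = 0.13). The 3 genes had groups that did not overlap, as did 68.7% of all tested genes, and differences that did not pass edgeR's test. PCDH18 and PCDH20 thus lay on the other side from PCDH7, PCDH9, PCDH10, PCDH1 and PCDH19, so the non-clustered genes did not share 1 direction.

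**Figure D2:**
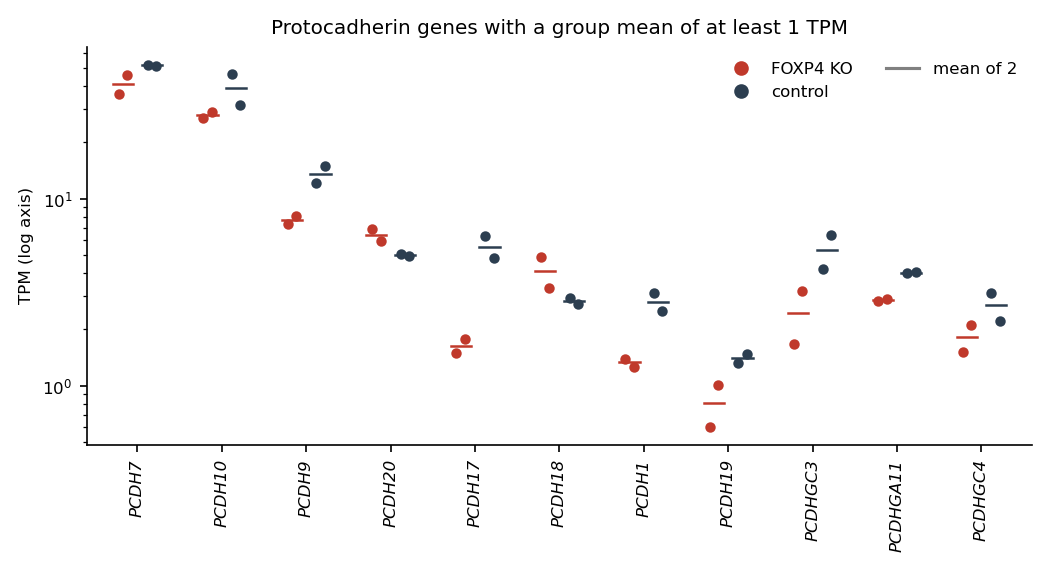
Levels in TPM (log axis) of the 11 protocadherin genes with a mean of at least 1 TPM in either group. Each point is 1 library, FOXP4 KO to the left and control to the right, and bars are the mean of 2 libraries. PCDH7 and PCDH10 stand highest, PCDH20 and PCDH18 are higher in FOXP4 KO cells, and the other 9 are lower.

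PCDH17, a δ-type gene of synapses and axon sorting, gave values that depended on the table. It had 31 and 310 counts in FOXP4 KO cells, against 809 and 693 in control cells, a log2 fold change of −2.26 (SE 0.864, adjusted p = 0.10, edgeR). In TPM it had 1.49 and 1.78 in FOXP4 KO cells, against 6.29 and 4.80 in control cells. The 10-fold gap between the FOXP4 KO libraries in counts was thus not present in TPM. The count per TPM of FOXP4 KO library 1 came to 20.8 or 17.4, depending on which TPM column is set beside it, against 208 or 174 for FOXP4 KO library 2 and 129 and 144 for the control libraries. Among 12784 genes with at least 100 counts in some library, 4 departed from the control libraries' count per TPM by more than 4-fold in FOXP4 KO library 1 under both pairings of columns, PCDH17 being the only protocadherin among the 11 compared. PCDH17 lay below control in both tables and in both libraries. It was called with limma-trend on TPM (log2(TPM + 1) over genes of at least 1 TPM on average, −1.30, adjusted p = 0.011), with limma-voom (−3.04, adjusted p = 0.037) and without either FOXP4 KO library (−1.39, adjusted p = 0.0496 without library 1 and −4.75, adjusted p = 0.0053 without library 2, edgeR). It was not called with limma-trend over all genes on log2(TPM + 1) (adjusted p = 0.071) or log2(TPM + 0.1) (adjusted p = 0.081), nor with DESeq2 (adjusted p = 0.21). The cause of the mismatch was not tested.

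**Figure D3:**
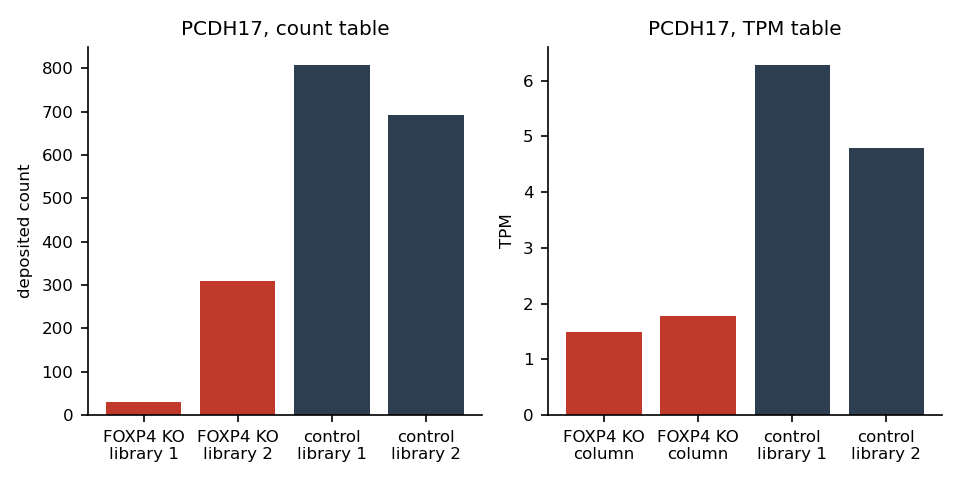
PCDH17 in the deposited counts (left) and in TPM (right), 1 bar per library or TPM column, FOXP4 KO before control. FOXP4 KO library 1 has 31 counts while no TPM value of the group is below 1.49.

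At low levels, PCDH8, PCDH15 and PCDH12 completed the tested non-clustered genes, here named after their values were seen. PCDH8, a δ-type gene that regulates N-cadherin turnover in rat neurons, had 69 and 87 counts in FOXP4 KO cells, against 31 and 40 in control cells (log2 1.03, SE 0.306, adjusted p = 0.053, edgeR). PCDH15, a tip-link protein of inner ear hair cells, had 18 and 11 counts in FOXP4 KO cells, against 2 and 4 in control cells (log2 2.12, SE 0.654, adjusted p = 0.059). It passed the low-count filter only through the FOXP4 KO libraries. PCDH12, an endothelial and trophoblast gene, had 73 and 92 counts in FOXP4 KO cells, against 82 and 78 in control cells, with groups that overlapped. PCDH11X and PCDH11Y, a near-identical X and Y pair, stood outside the count table: 65.3% of the 100-base windows of the longest PCDH11Y transcript occurred in no other protocadherin, so reads can be split between the 2. PCDH11X had 0.318 and 0.833 TPM in FOXP4 KO cells, against 0 and 0.0208 TPM in control cells.

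In the clustered arrays, levels were low and several genes were listed at 0. In TPM, whose 66 members can be followed without the count filter, 27 of 66 members had both FOXP4 KO values above both control values, against 25.9% of all 20263 genes, and 17 had both below, against 27.3%. Of the 50 members that stayed under 1 TPM in every library but were not at 0 throughout, 24 (48.0%) lay above and 8 (16%) below, against 21.6% and 17.0% of 3827 genes of the same range. These shares are descriptions of genes that share libraries, and in part reads. Over annotated transcripts, a median of 45.9% of the 100-base windows of a PCDHA gene and 53.7% of a PCDHG gene occurred in no other protocadherin, against 93.7% for PCDHB and 100% for non-clustered genes. How reads from the constant exons were assigned is not given in the sources used here, so values of single PCDHA and PCDHG genes are uncertain.

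In the PCDHB array, PCDHB2 rose. PCDHB2 (ENSG00000112852) had 59 and 83 counts in FOXP4 KO cells, against 13 and 8 in control cells, and 0.869 and 0.951 TPM against 0.173 and 0.0898 TPM. Its log2 fold change was 2.62 (SE 0.453, adjusted p = 0.012, edgeR), 6.13-fold, and it was called in 3 of the 4 fits that left out a library. Without FOXP4 KO library 2 the adjusted p was 0.067. PCDHB2 lies on chromosome 5 from 141094578 to 141098703 on the forward strand, near the upstream end of the array, and 88.6% of its transcript windows were its own. Both PCDHB2 and PCDHB14 met the count filter only with the FOXP4 KO libraries. PCDHB14, named after its values were seen, had 18 and 29 counts in FOXP4 KO cells, against 4 and 9 in control cells (log2 1.74, SE 0.555, adjusted p = 0.064, edgeR).

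Over the 16 PCDHB genes, 8 had both FOXP4 KO values above both control values in TPM (PCDHB2, PCDHB15, PCDHB8, PCDHB14, PCDHB9, PCDHB10, PCDHB6 and PCDHB4) and 3 had both below (PCDHB3, PCDHB13 and PCDHB5). Among all genes under 1 TPM in every library but not at 0 throughout, 21.6% lay above and 17.0% below. PCDHB10, PCDHB6 and PCDHB4 were at 0 in both control libraries and at no more than 0.102 TPM in FOXP4 KO cells. The summed level was 1.86 and 2.03 TPM in FOXP4 KO cells, against 0.768 and 0.665 TPM in control cells. PCDHB2 supplied more of it in FOXP4 KO cells than any other PCDHB gene. Only 3 PCDHB genes were tested, so the other 13 have no test.

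PCDHA10 (ENSG00000250120) was the only PCDHA gene tested, and it rose. It had 42 and 29 counts in FOXP4 KO cells, against 4 and 7 in control cells, a log2 fold change of 2.56 (SE 0.483, adjusted p = 0.015, edgeR), 5.89-fold. It passed the count filter only through the FOXP4 KO libraries, and its level stayed low, at 0.158 and 0.109 TPM in FOXP4 KO cells, against 0.0181 and 0.0263 TPM in control cells. The adjusted p was 0.059 without control library 1 and 0.091 without FOXP4 KO library 1. Of the longest PCDHA10 transcript, 82.1% of windows were its own. That transcript is annotated at 12358 bases, against 5254 for the longest of PCDHA2, of which 45.9% of windows were its own. The share was not computed for the other PCDHA10 transcripts, so which transcript the reads came from is not known here.

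Along the PCDHA array, which runs from PCDHA1 to PCDHAC2 on the forward strand, the genes above control in TPM were PCDHA10, PCDHA11, PCDHA12 and PCDHAC1, all from PCDHA10 onward. The genes below control were PCDHA2, PCDHA3, PCDHA6 and PCDHA8, all upstream of PCDHA10. Genes whose groups overlapped did not all keep this order. The upstream PCDHA1 and PCDHA9 had means of 0.0514 and 0.0396 TPM in FOXP4 KO cells, against 0.0188 and 0.0234 TPM in control cells. The downstream PCDHA13 was at 0 in FOXP4 KO cells, against 0 and 0.0393 TPM in control cells. The upstream PCDHA7 went with the order. PCDHA2, the highest PCDHA value in control cells, had 0.106 and 0 TPM in FOXP4 KO cells, against 0.324 and 0.179 TPM in control cells. PCDHA12 had 0.0359 and 0.0916 TPM in FOXP4 KO cells, against 0 and 0.00627 TPM in control cells. This order was seen after the values were known, rests on levels under 0.33 TPM and was not tested. The array's sum hardly differed, with 0.561 and 0.479 TPM in FOXP4 KO cells, against 0.580 and 0.503 TPM in control cells. Summed CPM over the 3 PCDHA genes of the count table, which include PCDHA10 and not PCDHA2, was higher in FOXP4 KO cells (1.11 and 0.957, against 0.395 and 0.394 in control cells). The direction of the PCDHA sum therefore depends on which table is used.

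**Figure D4:**
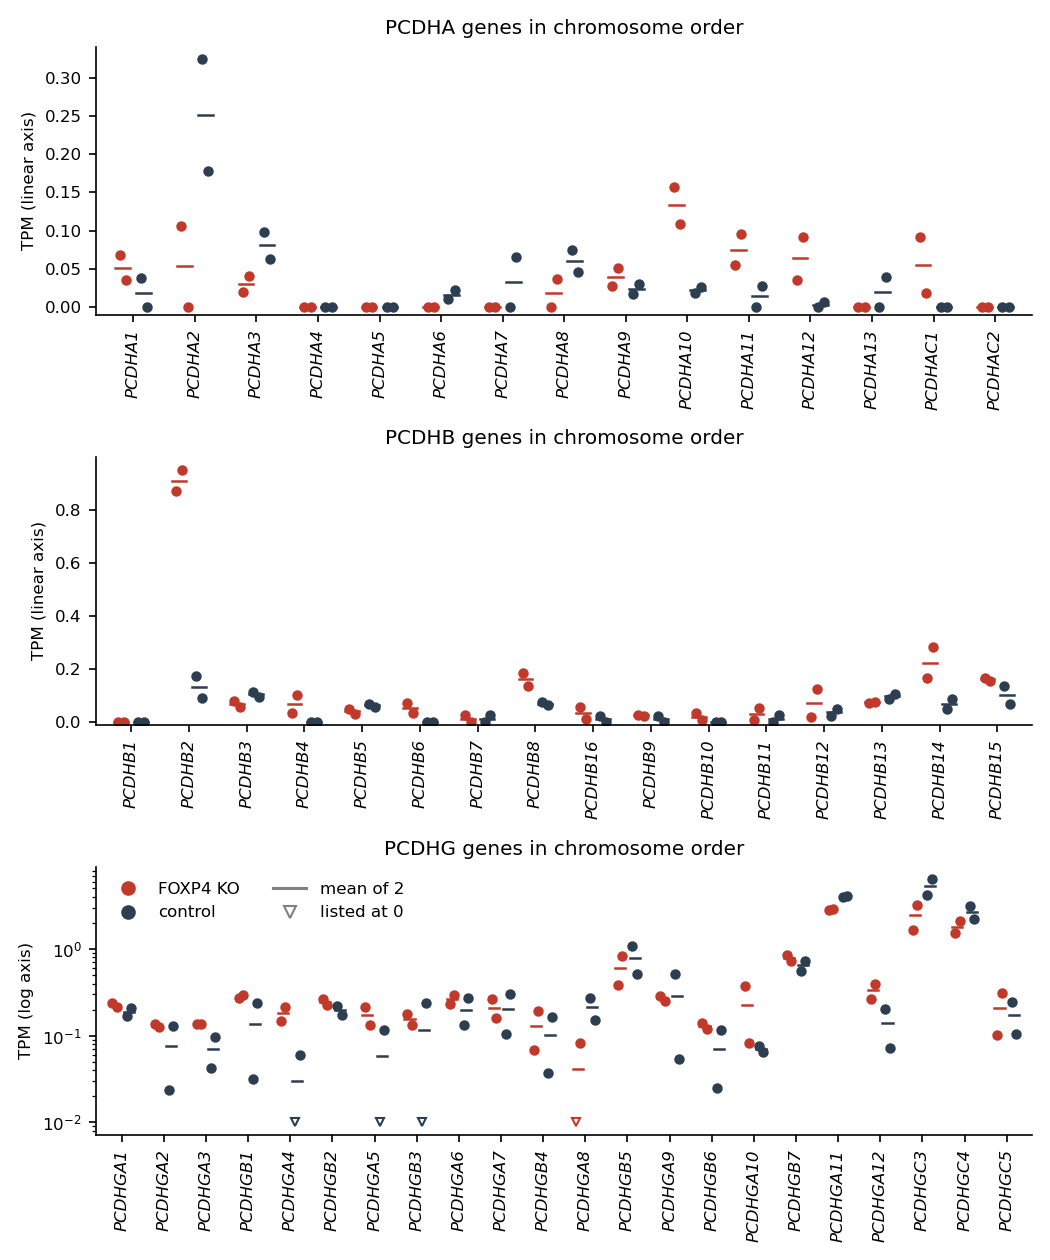
TPM of the clustered genes in their order along chromosome 5, with linear axes for PCDHA and PCDHB and a log axis for PCDHG. Points are libraries (FOXP4 KO left, control right), bars are means of 2 and open triangles in the PCDHG panel mark values listed at 0. PCDHB2 stands alone in its array in FOXP4 KO cells, PCDHA values shift between PCDHA2 and PCDHA10, and PCDHGC3, PCDHGA11 and PCDHGC4 stand highest in PCDHG.

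PCDHG was the most used array, at 10.6 and 13.1 TPM in FOXP4 KO cells, against 15.1 and 16.5 TPM in control cells. None of its 17 tested genes passed edgeR's test (0 called; only PCDHGA11 and PCDHGC3 had an unadjusted p under 0.05). The same count was 2 with DESeq2 and 1 with limma-voom. PCDHGC3, a C-type isoform that is used more broadly than the others, had 131 and 277 counts in FOXP4 KO cells, against 348 and 591 in control cells (log2 −1.28, SE 0.384, adjusted p = 0.054). PCDHGA11 had 253 and 228 counts in FOXP4 KO cells, against 313 and 369 in control cells (log2 −0.62, SE 0.184, adjusted p = 0.054). PCDHGC4, a C-type isoform tied to neuron survival in mice, had 102 and 203 counts in FOXP4 KO cells, against 255 and 210 in control cells (log2 −0.74, SE 0.384, adjusted p = 0.20). All 3 abundant isoforms were thus below control in both FOXP4 KO libraries, as were 33.2% of all tested genes. For PCDHGC4 this was nearly a tie, with 4.856 CPM in FOXP4 KO library 2 and 4.862 CPM in control library 2. The gaps between the 2 libraries of a group were wide for PCDHGC3 and PCDHGC4.

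The PCDHG genes under 1 TPM showed no common direction that a test called. Among the 15 of them in the count table, counts were 2 to 90 per library and summed to 351 and 360 in FOXP4 KO cells, against 236 and 292 in control cells. PCDHGA9 had 16 and 14 counts in FOXP4 KO cells, against 42 and 3 in control cells, and PCDHGA12 had 16 and 23 in FOXP4 KO cells, against 10 and 4 in control cells, both named after their values were seen. Of the 9 tested PCDHG genes that met the filter only with the FOXP4 KO libraries, 8 had a positive log2 fold change and 1 a negative one, and of the 8 that met it on the control libraries alone, 4 were positive and 4 negative. Control library 1 was below control library 2 in 10 of the 15 low genes. The median log2 fold change of all 17 tested PCDHG genes was 0.38, and it was 0.080 without control library 1 and 0.79 without control library 2, so that its size depended on which control library was kept.

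The chromosome 5 locus was also read against its neighbours, since genes near each other can share a copy number or a domain. Within 1 Mb of the arrays, 34 other genes were tested, of which 10 were higher in FOXP4 KO cells (29.4%, against 13.8% of all tested genes) and 1 lower, with a median log2 fold change of 0.33. By lowest p, the neighbours that rose were led by RELL2 (1.90), FCHSD1 and CYSTM1 (0.82), and 2 of these lie between the arrays and PCDH1, which fell. Around PCDH1 the 12 tested neighbours had a median of 0.080, with 3 higher and none lower. Most of these 12, and all 3 higher ones, were already counted among the neighbours of the arrays. PCDH19 had 17 neighbours with a median of −0.038, and PCDH8 had 11 with a median of 0.17. PCDH10 had a single tested neighbour, PABPC4L, which rose (log2 0.47), opposite in sign to PCDH10. Copy number was not measured, and its part was not tested.

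**Figure D5:**
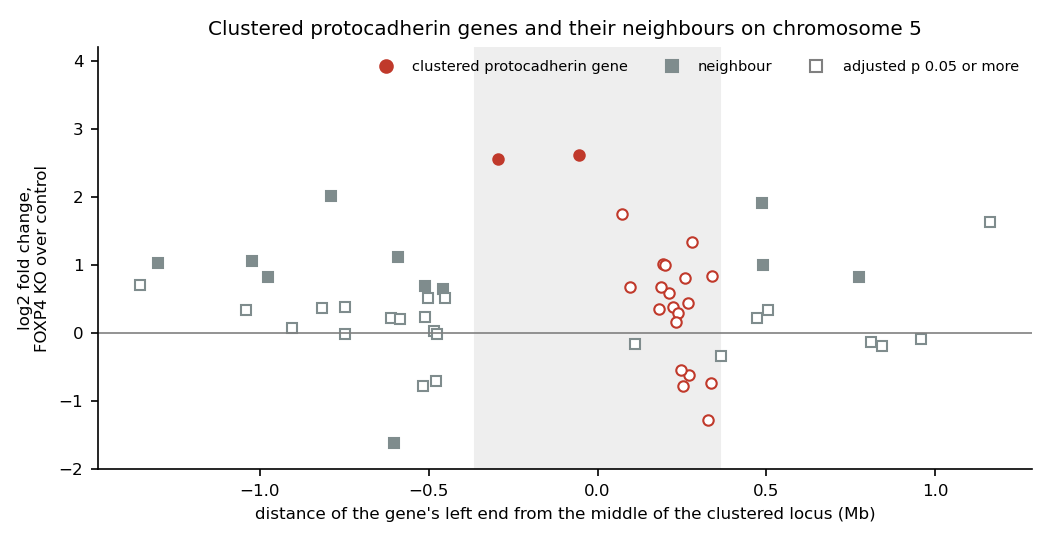
The log2 fold change of FOXP4 KO over control for clustered protocadherin genes (circles) and other genes within 1 Mb (squares), against the distance in Mb from the middle of the locus, with the arrays shaded. Filled symbols have an adjusted p under 0.05: 2 protocadherins and 11 neighbours, 10 of them above 0.

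Genes that act on the clustered promoters were measured beside them. Of 24 tested regulators of looping, methylation and silencing, 1 rose and 6 fell (29.2%, against 25.8% of all tested genes), with a median log2 fold change of −0.20. STAG2, a cohesin subunit, fell (log2 −1.09, SE 0.173, adjusted p = 0.0094, edgeR), as did UHRF1 (−0.72), which directs the maintenance methyltransferase DNMT1 to DNA, DNMT1 itself (−0.56) and MAU2 (−0.47), part of the cohesin loader. SETDB1, a histone H3 lysine 9 methyltransferase that keeps clustered protocadherin genes silent in mouse neurons, rose (0.48). CTCF (−0.22), SMCHD1 (−0.32) and DNMT3B (−0.03) did not pass the test. These are values set beside the arrays, and their part in the protocadherin results was not tested.

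Among 21 tested binding partners, 4 rose and 2 fell (28.6%, against 25.8% of all tested genes), with a median of −0.04. NLGN1, a synaptic adhesion protein that γ-protocadherins bind, rose (log2 1.16), as did RET (0.73), a receptor kinase that binds clustered protocadherins. CDH2, N-cadherin, fell (−0.80), as did TAOK2 (−0.53), a kinase through which PCDH8 signals. The proteases that cut protocadherins moved in both directions, with ADAM17 (0.43) and NCSTN (0.42) higher and APH1B (−1.39) lower. These are 3 of 8 tested (37.5%, against 25.8% of all tested genes). The count-based fall of APH1B was hardly seen in TPM (3.36 and 3.02 in FOXP4 KO cells, against 3.53 and 3.68 in control cells), and the cause was not tested. Of 17 tested genes of other long cadherins, 4 rose and none fell (23.5%, against 25.8% of all tested genes), with a median of 0.13: FAT1 (0.83), FAT2 (0.91), CELSR1 (0.53) and DCHS2, which had 117 and 143 counts in FOXP4 KO cells, against 33 and 53 in control cells. The shares of called partners and long cadherins lay near that of the whole table.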

How the data were processed

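RNA-seq libraries of FOXP4 KO and control HEK293T cells were analysed from 2 deposited tables. The authors deposited raw read counts per gene (15218 genes, none at 0 in any library) and TPM values per gene (20263 genes). The aligner, the counter and strand use were not given in the sources used here. Builds named in the submitters' processing notes are GRCm38 and mm10, of mouse, although the gene identifiers are human. RNA extraction is given as TRIzol in the methods and as a column kit in the labels. The 2 TPM columns of the FOXP4 KO group could not be matched to its libraries and were used as a group.

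The quasi-likelihood test of edgeR 4.0.16 (R 4.3.3) was applied to the counts after filterByExpr and TMM scaling, with Benjamini-Hochberg adjustment over 14620 genes. With 2 libraries per group an exact permutation test cannot go below 0.33, so none was run. Alternatives were DESeq2 1.42.0, limma-voom and limma-trend (limma 3.58.1) on log2(TPM + 1) and log2(TPM + 0.1), other scalings and filters, leaving out each library, and a block for the replicate number. Positions came from GENCODE 29 (GRCh38) by gene identifier. Genes named are FOXP4, all PCDH genes (in full where called or with a group mean of at least 1 TPM), at most the 4 lowest-p genes per direction of each list with CTCF, SMCHD1 and DNMT3B, and at most 3 neighbours per locus. Others are marked as chosen after their values were seen. Members and gene lists were chosen with earlier results of these data known. Sums, medians and shares over genes carry no test.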

Additional observations from a re-analysis of the deposited data

Results flagged for a closer look

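Signal above control was found in protocadherin genes that the count table does not list and the test therefore did not use. PCDH11X had a mean of 0.576 TPM in FOXP4 KO cells (0.318 and 0.833), against 0 and 0.0208 TPM in control cells. PCDHGA4 had a mean of 0.182 TPM in FOXP4 KO cells (0.149 and 0.215), against 0 and 0.0605 TPM in control cells. PCDHGA5 had a mean of 0.174 TPM in FOXP4 KO cells (0.217 and 0.132), against 0 and 0.115 TPM in control cells. These levels have no count behind them here, a TPM of 0 can be a failed estimate, and the differences were not tested. All 25 members outside the count table were at 0 in 1 or more libraries, and 8 were at 0 in both control libraries. A member at 0 in both control libraries cannot lie below them. Of the 25, 11 lay above control in both FOXP4 KO libraries and 4 below. Among all genes under 1 TPM in every library but not at 0 throughout, 21.6% lay above and 17.0% below. The 4 members below include PCDHGA8 (0 and 0.0830 TPM in FOXP4 KO cells, against 0.272 and 0.154 TPM in control cells) and PCDHA2 (0.106 and 0 TPM in FOXP4 KO cells, against 0.324 and 0.179 TPM in control cells).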

How the results depend on the processing

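Main counts were 2 members higher and 2 lower in FOXP4 KO cells. The higher count was 4 by the fold rule, 1 with limma-trend on log2(TPM + 1), 0 on log2(TPM + 0.1) and 0 on genes of at least 1 TPM on average, and 1 to 2 with a library left out. The lower count was 1 with upper-quartile scaling, 5 with DESeq2, 4 with limma-voom, 1 without a count filter, 0 on log2(TPM + 1), 0 on log2(TPM + 0.1), and 1 to 4 with a library left out. The replicate block, with 2 pairs whose deviations were uncorrelated (−0.0026), gave 2 higher and 3 lower (PCDHGC3, PCDH9 and PCDH17). PCDH12 changed sign without control library 1 (0.082) and without FOXP4 KO library 1 (0.098), within −0.28 to 0.10. Of 229 values of 17 single genes under alternatives, 194 kept direction and call, 17 lost the call and 16 gained it. Over all genes, 3778 calls became 646 and 316 on the 2 TPM scales, 1108 and 1298 without FOXP4 KO library 1 or 2, and 2266 without control library 1. Upper-quartile scaling moved the median of all genes to 0.085. Fits that leave 1 library in a group assume that it varies like the other group. The small counts of PCDHA, PCDHB and low PCDHG genes and 2 libraries per group limit what could be called.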
